A study of Mus musculus with 25 samples.

Results

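Haematopoietic stem cells (HSCs) recovered from bone marrow after transplantation of 10 young HSCs (3 libraries) were set against HSCs of mice that received 0 doses of 5-fluorouracil (5-FU) and were kept for 6 months after the age of 3.5 months (3 libraries). The 6 libraries are all those that the labels give to these 2 groups, of 25 in the series. All mice were C57Bl/6, and no group carries a transgene. The labels give neither the time between transplantation and recovery, nor the age of the recipients, nor the sex of any mouse, so the transplantation itself, time and host cannot be told apart. They also do not say whether replicates came from separate mice, so p-values measure the spread between these libraries, which may be technical. Reduced representation bisulfite sequencing (RRBS) was used: DNA is cut at CpG-rich sites, and bisulfite turns unmethylated cytosine into a base read as thymine, so the percentage of reads that keep the cytosine is the methylation level.

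HSCs renew themselves and supply every blood lineage. After a transplant of few cells, each surviving HSC divides many times to refill the marrow, whereas HSCs of an undisturbed mouse divide rarely. CpG methylation is copied to the new strand at each division by the maintenance enzyme DNMT1 and is written anew by DNMT3A and DNMT3B. Most CpGs that lie far apart are methylated in adult tissue, while dense CpG islands at promoters are mostly free of methylation.

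The transplanted libraries held 44427841 to 48054848 reads, against 23392293 to 28509907 in the 0-dose libraries, and the median CpG was read 21 to 23 times against 10 to 13. The deepest CpG had 635093 to 700232 reads in the transplanted libraries and 63841 to 74120 in the 0-dose libraries. The groups thus differ in depth as well as in treatment, and the part of depth in the results was not tested beyond the coverage settings given further on. On the autosomes, 853450 CpGs had at least 5 reads in all 6 libraries, and 80420 tiles of 1000 bp held at least 3 of them. The median tile had 174 to 183.5 reads in the transplanted libraries and 112 to 135 in the 0-dose libraries. Of the 26 cell type markers listed for a check of identity, only the promoter of Hlf, a transcription factor of HSCs, could be measured; its mean level was 0.280% in the transplanted libraries and 0.617% in the 0-dose libraries. The labelled cell type was therefore not checked further.

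Methylation was lower after transplantation of 10 young cells. The mean level of all autosomal tiles was 52.1%, 53.6% and 51.8% in the transplanted libraries, against 59.9%, 57.8% and 58.3% in the 0-dose libraries. Every transplanted library lay below every 0-dose library, with means of 52.5% ± 0.962 and 58.7% ± 1.10 (SD, n = 3 each) and a difference of -6.17 percentage points. A two-sided exact permutation test of 3 against 3 cannot go below 0.1, the value reached here and for the 3 other planned single values, and all remain at 0.1 after Benjamini-Hochberg adjustment over the 4. The size of the difference moved with coverage: it was -3.64 points in tiles with at least 5 CpGs and -2.84 points with at least 20 reads per CpG, settings that keep 42761 and 28362 tiles. Of the 80420 tiles, 83.9% had the lower mean after transplantation.

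The difference was graded by the number of CpGs in a tile. Tiles with fewer than 10 CpGs averaged 65.9%, 67.9% and 65.4% in the transplanted libraries and 77.0%, 74.0% and 74.8% in the 0-dose libraries, a difference of -8.89 points over 41816 tiles. Tiles with 10 to 29 CpGs averaged 50.3% ± 0.831 and 54.8% ± 0.790 (SD, n = 3 each). Tiles with 30 or more CpGs averaged 13.0%, 13.3% and 13.0% in the transplanted libraries and 14.1%, 13.9% and 13.7% in the 0-dose libraries, a difference of -0.848 points over 13362 tiles. The groups did not overlap in any of the 3 classes, and the gap was widest where CpGs were few.

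**Figure D1:**
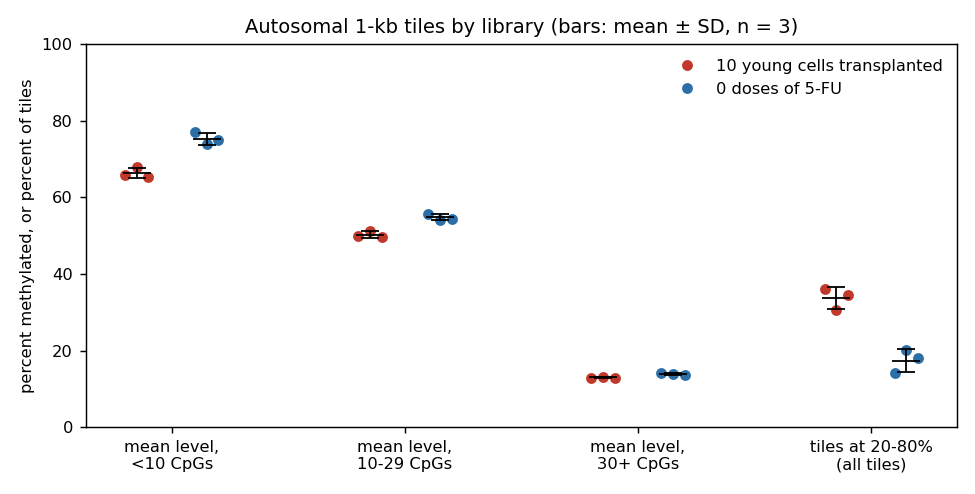
Mean methylation of autosomal 1-kb tiles in 3 classes of CpG number, and the percentage of all tiles with a level between 20% and 80%, for each library (points; black bars, mean and SD, n = 3). The transplanted libraries lie below the 0-dose libraries in each class, with differences of -8.89 points in tiles with fewer than 10 CpGs and -0.848 points in tiles with 30 or more, and hold more tiles of intermediate level.

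Intermediate levels were more common after transplantation. Tiles between 20% and 80% made up 36.0%, 30.7% and 34.6% of tiles in the transplanted libraries, against 14.2%, 20.1% and 17.99% in the 0-dose libraries. Tiles above 80% made up 34.7% ± 2.98 and 51.8% ± 2.99 (SD, n = 3 each), so most of the excess stood against fewer highly methylated tiles. The difference in tiles between 20% and 80% was 16.3 points, against 9.73 points in tiles with at least 5 CpGs and 6.45 points with at least 20 reads per CpG. Tiles under 20% differed little, at 31.5% ± 0.374 after transplantation and 30.7% ± 0.102 with 0 doses.

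The 2 young libraries (3.5 months, not transplanted), which are in neither group, give a level for sorting tiles that is independent of both groups. In tiles with fewer than 10 CpGs and 50 to 60% methylation in young HSCs, the transplanted libraries differed from the mean of the 0-dose libraries by -14.99, -13.5 and -17.3 points. In tiles of the same CpG class at 90% or more, the differences were -8.55, -6.09 and -7.82 points, and in those under 10% they were -0.920, -0.571 and -1.23 points. In this CpG class the difference was thus deepest at intermediate levels. Tiles with 30 or more CpGs ran the other way at 40 to 50%, with differences of 5.43, 5.12 and 1.48 points over 22 tiles, and at 70 to 80% had -5.72, -3.97 and -6.07 points.

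**Figure D2:**
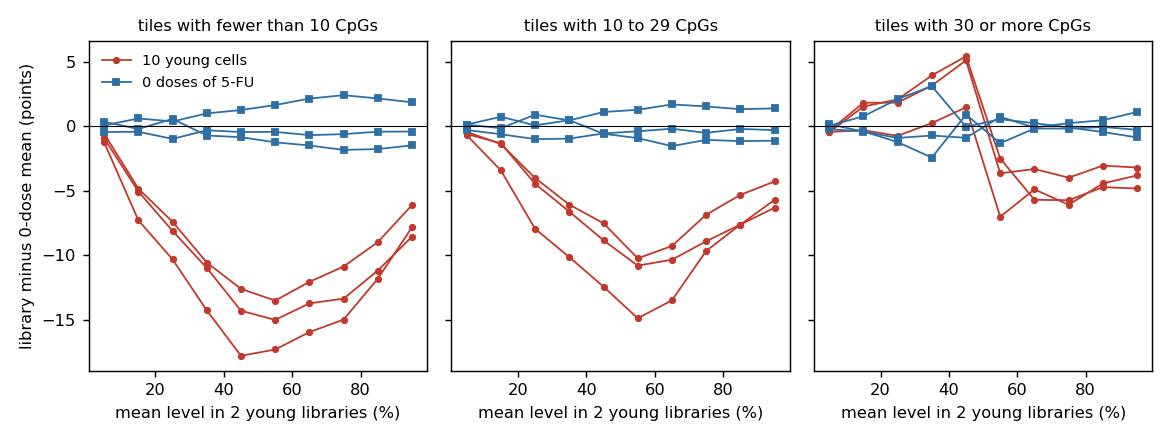
Distance of each library from the mean of the 3 0-dose libraries (y, percentage points) in tiles sorted by their level in 2 young libraries (x, percent, bins of 10), in 3 classes of CpG number; each line is 1 library and bins hold at least 20 tiles. In tiles with fewer than 10 CpGs the 3 transplanted libraries fall to between -12.6 and -17.8 points in the bin at 40 to 50%, whereas the 0-dose libraries stay within 2.42 points of their mean.

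Individual tiles were tested with a quasi-binomial model over all 80420 tiles. A tile counted as changed at a Benjamini-Hochberg adjusted p under 0.05 and a difference of at least 10 points. By this rule 4098 tiles fell (5.10% of those tested) and 112 rose (0.139%) after transplantation, so 97.3% of the 4210 changed tiles (5.24%) were lower. The number of changed tiles depended strongly on the settings of the model: 7 other settings of its dispersion, run on these data before this one was chosen, gave 0 to 5100 changed tiles, with 0 in 3 of them. Leaving out replicate 1 of the 0-dose libraries, the one with the highest mean level, left 342 changed tiles. Under every setting that called any tile, at least 89.3% of the called tiles were lower after transplantation. Without any model, every transplanted library lay below every 0-dose library in 37.0% of tiles and above in 2.61%. The tile counts are thus given as a description of the fit used, and the direction rests on the library values above.

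Among tiles with fewer than 10 CpGs, 7.79% fell, against 3.13% of tiles with 10 to 29 CpGs and 0.367% of tiles with 30 or more. Within the CpG-poor class, 15.6% of tiles at 20 to 80% in young HSCs fell, as did 6.09% of those at 80% or more and 3.02% of those under 20%. No chromosome stood far from the others: between 3.95% (chromosome 16) and 5.77% (chromosome 11) of its tiles fell. The median difference was -26.1 points over tiles that fell and 24.2 points over tiles that rose, values that the call rule helps to set.

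The median absolute difference between 2 libraries over tiles was 3.37, 3.47 and 2.91 points within the transplanted group and 3.17, 2.92 and 3.17 points within the 0-dose group. Pairs across the groups differed by 4.15 to 6.40 points. Pearson's r over tiles, which are not independent replicates, was 0.965 to 0.977 within the transplanted group, 0.978 to 0.983 within the 0-dose group and 0.957 to 0.971 across, so it was lower among transplanted replicates. Single tiles in which 1 library stood at least 30 points apart from both others of its group were nonetheless found in every library. Transplanted replicates 1 and 3 had 199 and 240 tiles that far below both others, and replicate 2 had 24, against 27, 153 and 108 in the 0-dose libraries.

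The 8 largest rises and 8 largest falls, among changed tiles with at least 5 CpGs, at least 50 reads in every library and groups that did not overlap, show what single loci look like. No mm9 annotation was used here, so a tile is given by position unless a RefSeq promoter sequence could be placed beside it. The largest rise, at chr8:87308001-87309000 (17 CpGs), read 71.0%, 60.3% and 57.1% in the transplanted libraries and 21.8%, 25.3% and 17.0% in the 0-dose libraries (adjusted p = 0.00494, quasi-binomial F test). The young libraries were at 15.7% and 17.2%, and the libraries from 50 and 500 young cells at 59.9% and 42.1%. The tile at chr8:107792001-107793000 read 56.3%, 55.4% and 55.1% against 6.40%, 26.5% and 18.6%. The 3 transplanted libraries were close together there, and the 0-dose libraries were more widely spread.

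Among the largest falls, chr9:56724001-56725000 (5 CpGs) read 40%, 32.3% and 20.3% in the transplanted libraries and 95.8%, 76.4% and 90% in the 0-dose libraries. At chr7:133421001-133422000 (7 CpGs) the levels were 18.4%, 28.04% and 15.8% against 76.5%, 79.0% and 70.5%, but the young libraries were already low, at 24.5% and 28.6%. Both groups were well apart at each of these tiles. The fall of largest size, at chr4:4270001-4271000, was 11.9%, 12.7% and 10.9% against 83.1%, 75.8% and 71.8%, with 1253 to 1725 reads per tile in the transplanted libraries and 142 to 260 in the 0-dose libraries. Without CpGs of over 500 reads its difference was -3.59 points and it was not called (adjusted p = 0.693), so that tile rests on CpGs of extreme depth. The next largest, at chr9:67896001-67897000, was -57.5 points with all CpGs, -20.2 points without those of over 500 reads (adjusted p = 0.0456), and -12.7 points by limma with each CpG counted once, where it was not called (adjusted p = 0.142). With all CpGs, the young libraries were already low at the chr4 tile (16.7% and 14.4%) and at this chr9 tile (9.80% and 8.58%). Apart from the fetal libraries (73.8% and 35.1%, then 63.0% and 29.9%), those outside the comparison ranged from 7.21% to 30.5% and from 6.91% to 30.5%. The 0-dose libraries thus stood above every other adult library at both tiles.

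**Figure D3:**
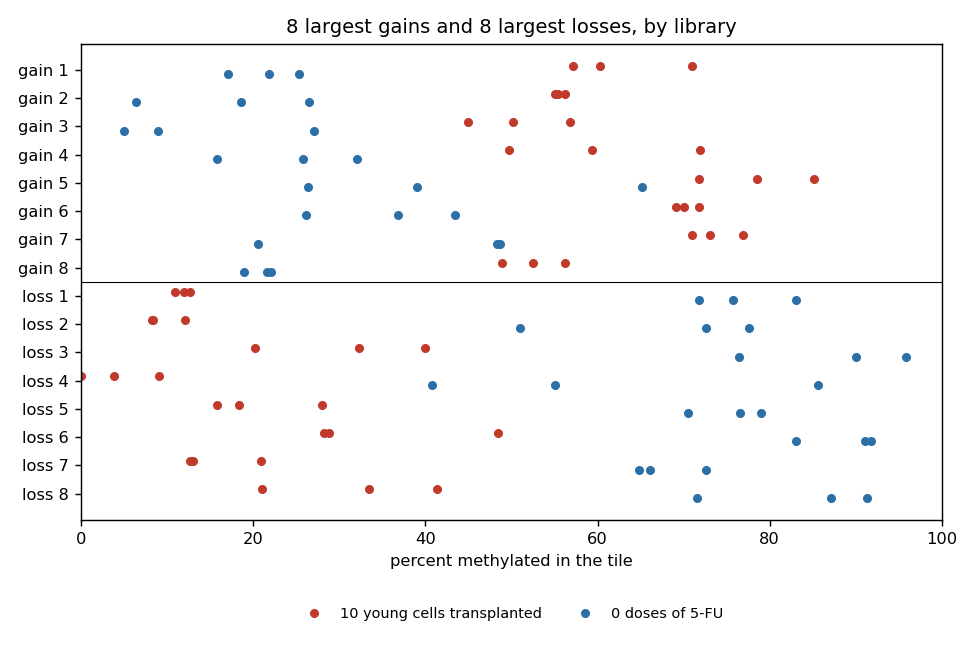
Methylation (x, percent of reads) of the 8 tiles that rose most and the 8 that fell most, 1 point for each library; tiles run from the largest difference down within rises and within falls. The transplanted and 0-dose libraries do not overlap in any of these tiles, which the rule for choosing them required.

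Runs of neighbouring changed tiles were counted. Tiles starting within 2000 bp of each other formed 71 runs of 2 or more among those that fell and 4 among those that rose. How often any 2 tested tiles start that close was not taken, so the counts have no background. The longest runs held 3 tiles, and 3 of the 6 such runs lay close together on chromosome 8, from 126072001 to 126096000. Their mean levels were 49.9%, 46.7% and 49.2% in the transplanted libraries, against 75.0%, 74.0% and 75.0% in the 0-dose libraries.

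Tiles that fell were also read in the 19 libraries outside the comparison, most of which lay between both groups. Over the 3931 of them covered in every library, the mean was 53.2%, 57.5% and 51.8% after transplantation of 10 young cells and 83.1%, 80.4% and 81.8% with 0 doses, the values that chose them. The libraries from 50 and 500 young cells stood at 61.9% and 59.8%, those from old transplanted cells between 58.9% and 67.5%, and both young libraries at 68.8% and 72.8%. Fetal, old, 2-dose and 4-dose libraries lay between 74.7% and 81.4%, with 1 old library (81.4%) inside the 0-dose range. The transplanted libraries were lower than every untransplanted one over these tiles, the young libraries included, an order that the choice of tiles helps to set. Over all 77789 tiles covered in every library, transplanted libraries averaged 51.4% to 55.4% and untransplanted ones 56.5% to 60.4%.

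Tiles that rose were counted over 108 tiles covered in every library. They averaged 54.4%, 51.6% and 50.3% after transplantation of 10 young cells and 26.5%, 27.8% and 26.2% with 0 doses. Other transplanted libraries stood between 43.0% and 52.2%, and other untransplanted ones between 30.3% and 41.3%. In 96 of the 3931 tiles that fell, the 0-dose libraries all lay above the other 11 untransplanted libraries. In 1682 of the 3931 (42.8%), the libraries from 10 young cells all lay below every untransplanted library. Of the 108 tiles that rose, 13 had the 0-dose libraries below the other 11. In 20 of the 108, the libraries from 10 young cells lay above every untransplanted library. The choice of these tiles helps to set all these counts, and the same patterns were not counted over all tiles.

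**Figure D4:**
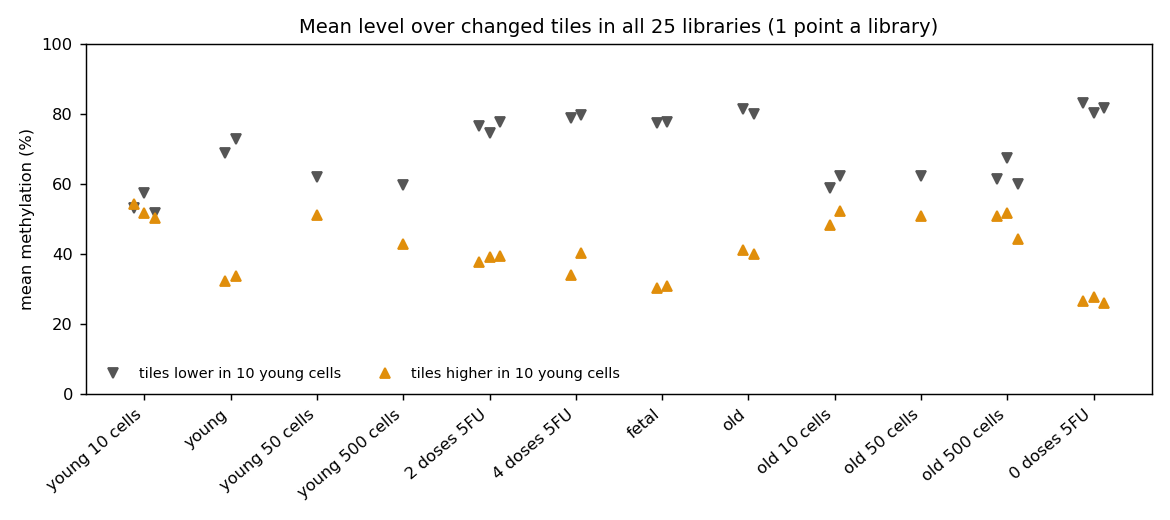
Mean methylation (y, percent) over tiles that were lower (grey, 3931 tiles) or higher (orange, 108 tiles) in the libraries from 10 young cells than in the 0-dose libraries, for each of 25 libraries (1 point each) by group. The groups at both ends chose the tiles; other transplanted libraries lie at 58.9% to 67.5% over the grey tiles and untransplanted ones outside the comparison at 68.8% to 81.4%.

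The promoters that could be placed were largely unmethylated in both groups. RefSeq promoter sequences (250 bases before to 50 after a transcription start) were placed on the files' positions by their CpG spacing, and 7166 windows with at least 3 measured CpGs were tested. Of these, 98.0% were under 20% in both groups, and the median difference was -0.434 points. Placement needed at least 8 CpGs matched to covered ones. Promoters with fewer CpGs could not enter, which helps to set the share under 20%. By the same rule as for tiles, 3 windows rose (0.0419%) and 5 fell (0.0698%). Limma on the arcsine square root of the levels called 18 windows, but with each CpG counted once it called 0, although 1455 had an unadjusted p under 0.05. Windows of the 8 called are described below; those printed were picked after their values were seen.

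The promoters of Nrsn2, Ube2d3, Mcts2, 2310022B05Rik and Thrap3 carry most of what was called, and their sequences show where the measured CpGs lie. Letters are RefSeq GRCm38.p6, 5′ to 3′ along the gene, with CpGs that had at least 5 reads in all 6 libraries in capitals; positions are mm9, from the placement. They lie at chr2:152202292-152202591 (minus strand), chr3:135101194-135101493 (plus), chr2:152512634-152512933 (plus), chr8:127187220-127187519 (minus) and chr4:125879905-125880204 (minus).
Nrsn2: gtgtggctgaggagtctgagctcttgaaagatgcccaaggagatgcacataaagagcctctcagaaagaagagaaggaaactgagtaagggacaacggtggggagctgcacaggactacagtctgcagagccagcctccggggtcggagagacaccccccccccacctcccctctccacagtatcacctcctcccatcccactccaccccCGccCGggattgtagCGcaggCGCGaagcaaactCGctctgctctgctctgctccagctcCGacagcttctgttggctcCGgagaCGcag
Ube2d3: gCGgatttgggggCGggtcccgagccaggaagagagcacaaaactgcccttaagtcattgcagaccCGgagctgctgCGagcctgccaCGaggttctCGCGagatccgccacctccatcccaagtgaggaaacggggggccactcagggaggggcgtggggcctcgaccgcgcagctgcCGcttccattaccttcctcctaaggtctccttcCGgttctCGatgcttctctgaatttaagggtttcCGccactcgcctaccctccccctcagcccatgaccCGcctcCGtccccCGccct
Mcts2: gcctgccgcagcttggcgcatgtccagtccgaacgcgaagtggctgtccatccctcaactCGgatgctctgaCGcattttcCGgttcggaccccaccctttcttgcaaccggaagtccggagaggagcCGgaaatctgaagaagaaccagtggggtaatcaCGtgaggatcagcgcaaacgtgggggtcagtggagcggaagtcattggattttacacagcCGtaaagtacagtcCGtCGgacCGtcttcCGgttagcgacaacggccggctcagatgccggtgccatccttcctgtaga
2310022B05Rik: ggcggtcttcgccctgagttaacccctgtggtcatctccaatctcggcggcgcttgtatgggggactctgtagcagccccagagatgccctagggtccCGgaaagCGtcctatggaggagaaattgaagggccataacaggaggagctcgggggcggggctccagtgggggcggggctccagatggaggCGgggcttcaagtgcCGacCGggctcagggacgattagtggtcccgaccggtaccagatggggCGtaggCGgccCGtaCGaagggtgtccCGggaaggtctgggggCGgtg
Thrap3: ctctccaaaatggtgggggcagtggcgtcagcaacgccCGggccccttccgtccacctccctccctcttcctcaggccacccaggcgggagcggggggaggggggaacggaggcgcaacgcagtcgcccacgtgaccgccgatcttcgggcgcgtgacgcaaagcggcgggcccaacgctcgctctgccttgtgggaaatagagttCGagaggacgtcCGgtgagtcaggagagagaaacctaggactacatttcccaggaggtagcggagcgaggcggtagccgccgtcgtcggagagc

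Nrsn2, which encodes neurensin 2, a membrane protein of neurons, rose. Its window read 56.5%, 58.3% and 51.4% after transplantation, against 21.7%, 18.8% and 23.4% with 0 doses, a difference of 34.1 points (adjusted p = 0.00320, quasi-binomial F test). Its 9 measured CpGs lie within 46 bases of the start, and all had the higher mean after transplantation. The lowest of them, 35 bases before the start, was at 10.9% against 5.65%, and the highest, 39 bases before it, at 74.5% against 51.9%. Both young libraries were at 21.1% and 18.7%, and those from 50 and 500 young cells at 59.8% and 41.6%. Some untransplanted libraries were also high, with the old ones at 41.6% and 40.5% and the 4-dose ones at 27.7% and 45.5%. The 2-dose libraries read 29.5%, 24.9% and 15.2%, and the fetal ones 4.59% and 3.77%.

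Ube2d3, an E2 ubiquitin-conjugating enzyme, rose to 25.8%, 25.8% and 22.8% after transplantation, against 6.73%, 0.625% and 0.771% with 0 doses; the young libraries lay between, at 17.3% and 16.1%. A tile of 4 CpGs within 2000 bp, at chr3:135103001-135104000, fell (-21.1 points, adjusted p = 0.0271, quasi-binomial F test). The change was uneven over its 14 CpGs, whose means ran from 0% to 73.3% after transplantation and from 0% to 14.2% with 0 doses. Mcts2, an imprinted retrogene expressed from the paternal allele, read 82.5%, 86.4% and 71.8% after transplantation and 96.4%, 97.8% and 99.0% with 0 doses (adjusted p = 0.0437), but the 1-kb tile over it was not called (-11.4 points, adjusted p = 0.0684). 2310022B05Rik read 2.18%, 1.57% and 1.19% against 14.7%, 24.4% and 26.0%, and the young libraries were at 1.48% and 1.49%. Every library outside the comparison was at 6.80% or less, so the 0-dose libraries stood apart there. The difference lay mainly at the measured CpG furthest before the start, at 14.54% after transplantation and 56.3% with 0 doses. The others averaged at most 2.57% in either group. That CpG had more reads in the 0-dose libraries, and the part of this in the difference was not tested.

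The other windows that fell were those of Vmn2r29 (-28.1 points) and of 4930513N10Rik (-13.3 points). Vmn2r29 is a vomeronasal receptor of a large multigene family whose reads can be hard to assign. 4930513N10Rik read 0.910%, 1.83% and 0.566% after transplantation and 19.97%, 9.30% and 14.07% with 0 doses. Every library outside the comparison was at 3.05% or less in that window, so the 0-dose libraries stood apart there. The other window that rose overlaps that of Ube2d3 and belongs to a second start of the same gene (17.7 points).

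Thrap3, which encodes a protein of transcription and splicing complexes, fell in a window of few measured CpGs. It read 35.1%, 19.4% and 10.4% after transplantation and 68.3%, 67.3% and 63.8% with 0 doses, while the young libraries were at 20.2% and 27.9%. The 1-kb tile there, with 20 CpGs, also fell (-45.3 points, adjusted p = 0.00145, quasi-binomial F test). Its mean was 4.35% after transplantation and 49.6% with 0 doses, but the young libraries were already low, at 5.02% and 6.88%. In the tile and in the window, every library outside the comparison lay below all 0-dose libraries, so the 0-dose libraries stood apart there. In the window, only 3 of the 31 CpGs in its sequence were measured. The 2 close to the start had 16 to 125 reads in the transplanted libraries and 250 to 870 in the 0-dose libraries, whose tiles are otherwise the shallower ones. The part of that excess of reads in the difference was not tested.

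**Figure D5:**
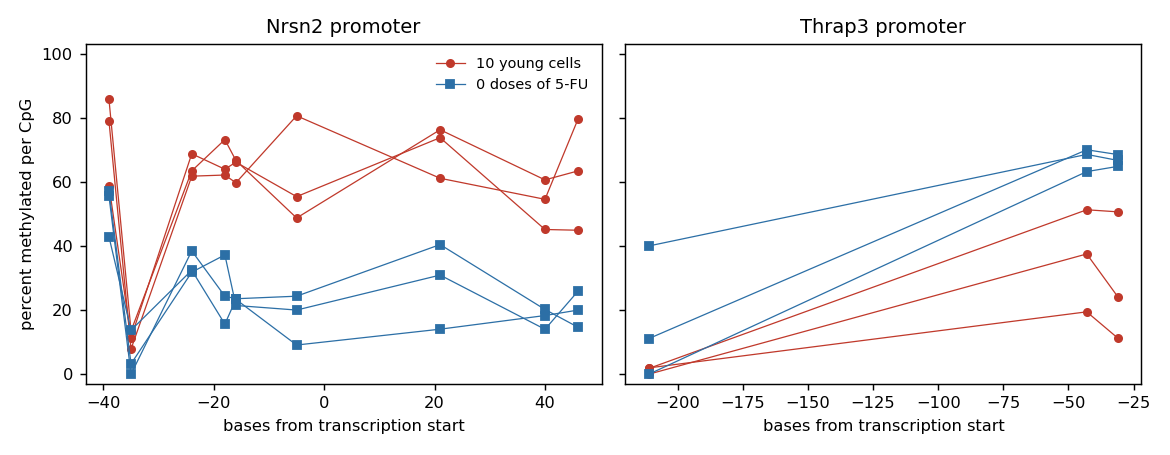
Methylation of each measured CpG (y, percent of reads) against its distance from the transcription start (x, bases) in the promoters of Nrsn2 (9 CpGs) and Thrap3 (3 CpGs); each line is 1 library. Over Nrsn2 the transplanted libraries lie above the 0-dose libraries at most CpGs, and over Thrap3 below them at both CpGs close to the start.

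Among the 11658 tiles within 2000 bp of a placed promoter start, 125 fell (1.07%) and 7 rose, against 3973 (5.78%) and 105 of the other 68762 tiles. Promoter tiles are mostly CpG-rich and unmethylated. In tiles with fewer than 10 CpGs and at least 80% methylation in young HSCs, 22 of 260 near a placed promoter fell (8.46%), as did 1665 of 27457 elsewhere (6.06%). The rises lay beside Nrsn2, Rfx4, Trim47, Gm36809, Fam83g, Foxa2 and S1pr5.

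Of 253 genes in 11 lists of blood, methylation, cell cycle, imprinted, germline and developmental genes, those with a placed promoter had 227 tiles nearby. Of these 227 tiles, 1 rose and 0 fell by the quasi-binomial test, against 0.139% and 5.10% of all tiles. All of them lie near a placed promoter, where 7 of 11658 tiles rose and only 1.07% fell. At an unadjusted p under 0.05, 6 were higher and 6 lower, and limma called 0. The riser lay beside Foxa2, a forkhead factor of endoderm and a Polycomb target, and read 38.7%, 32.1% and 39.3% after transplantation, against 26.0%, 12.9% and 11.7% with 0 doses. The untransplanted old libraries, at 34.0% and 34.7%, lay inside the range of the transplanted ones. The young libraries were at 14.3% and 17.1%, and the 2-dose libraries at 30.7%, 19.7% and 8.06%. The adjusted p of the Foxa2 tile was 0.0469, and it was not called when any 1 of the 6 libraries was left out (0.0703 to 0.140).

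Genes of the methylation machinery had 19 tiles, with a median difference of -0.635 points and none called. The tile beside Dnmt3b, a de novo methyltransferase, read 69.2%, 63.3% and 41.4% after transplantation and 88.1%, 82.1% and 78.2% with 0 doses. It held 3 CpGs and did not pass (adjusted p = 0.0698, quasi-binomial F test). The groups did not overlap there, which was also so, in the same direction, in 37.0% of all tiles. The young libraries were at 61.7% and 65.0%, within the range of the transplanted ones. Stem cell transcription regulators had 44 tiles, with a median difference of -0.484 points and none called. The largest was 15.8 points higher beside Cbfa2t3, a corepressor of HSCs (adjusted p = 0.113), followed by 13.9 points beside Runx1 (adjusted p = 0.209). Stem cell surface and signalling genes had 10 tiles with differences up to 2.54 points.

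Lineage genes gave a similar account. The tile beside Cebpb, a myeloid transcription factor, read 54.2%, 39.0% and 35.6% after transplantation and 79.4%, 55.1% and 64.5% with 0 doses (adjusted p = 0.0621). Beside Satb1, a chromatin organiser of lymphoid cells, the difference was -22.1 points (adjusted p = 0.151). Erythroid and megakaryocyte genes had 9 tiles, all within 2.87 points. Cell cycle genes had 25, of which the tiles beside Cdk4 (-16.8 points, adjusted p = 0.111) and the inhibitor Cdkn2a (14.7 points, adjusted p = 0.155) differed most. Germline genes, whose promoters are methylated in blood, averaged 87.7% after transplantation and 88.6% with 0 doses over 11 tiles. Imprinted genes had 9 tiles, with 13.2 points beside Plagl1 (adjusted p = 0.141), and housekeeping genes 8, with -4.87 points beside Ppia. For all lists but the Polycomb targets, 0 tiles passed.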

How the data were processed

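RRBS libraries of 6 samples were compared. The deposited files give, per CpG, methylated over total reads (counts made by the authors) and a deposited score, which equalled the methylated share scaled and rounded down and was not tested. Per the submitters' processing notes the build is mm9; which aligner, caller and filters were used is not given in the sources used here. CpGs with at least 5 reads in all 6 libraries were summed in 1000-bp autosomal tiles with at least 3 CpGs. A quasi-binomial model with 1 mean per group was fitted, with Williams' weights (correlation 0.0168 within a library), dispersion moderated as in limma with a trend on depth and held at 1 or more (residual degrees of freedom 4, prior 9.84), an F test, and Benjamini-Hochberg adjustment over all tiles. Single values were compared by two-sided exact permutation tests.

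The members and lists were chosen with earlier results of these data known. The fit was also chosen with its results in view. The first version, whose moderation used all tiles, called 0 tiles. Fixed correlations of 0.002, 0.005 and 0.008 and 3 other estimates of the correlation were then run on the real data, and their calls were seen, along with those of limma. On simulated reads the first version recovered 0 changed tiles, and the version in use, which estimates weights and moderation on the 56844 tiles with at least 5 methylated and 5 unmethylated reads expected in every library, was adopted; which of these changes mattered was not separated. All 7 earlier settings are reported as added alternatives. On simulated reads over 80420 tiles with 4000 changed, the version in use recovered 61.7% of 20-point and 94.2% of 30-point differences, with 80 unchanged tiles called. Where the correlation varied between tiles it recovered 18.3% and 67.8%, with 23 unchanged tiles called. With 200 changed tiles it recovered 32% and 86% at a constant correlation, and 0 of either when the correlation varied.

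No mm9 annotation was used. Contrary to the plan, which attached genes only from one, 8407 of 32851 RefSeq GRCm38.p6 promoter sequences (7483 genes) were placed by matching the spacing of their CpGs to covered CpGs on the same chromosome, with at least 8 matched and 4 more than the next best place. This was decided after the files were read. Of 31455 reversed sequences 6 were placed, and 99.96% of neighbouring pairs stood in RefSeq order. No coordinates were converted. Promoter windows were an added test. Tiles were named as the 8 largest rises and falls described in the text, the longest runs and the 2 largest differences of each gene list. Replicate numbers occur in both groups, but the labels do not tie the samples they name.

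Reads carry no molecular identifiers, so they are not independent molecules, and precision is limited by depth. Python 3.11.15, numpy 2.4.6, scipy 1.17.1, pandas 2.3.3, R 4.3.3 and limma 3.58.1 were used. Alternatives covered coverage, tile size, CpG number, the test, deep CpGs, library offsets, the other libraries, chromosome X, the replicate block and leaving out each library.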

Additional observations from a re-analysis of the deposited data

Results flagged for a closer look

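Chromosome X was outside the main measurement and carried a signal above the controls. Its 447 CpG-rich tiles averaged 48.2%, 49.3% and 46.9% in the libraries from 10 young cells, mean 48.1% ± 1.20, against 40.3%, 39.4% and 39.6% in the 0-dose libraries, mean 39.8% ± 0.445 (SD, n = 3 each; two-sided exact permutation p = 0.1, the smallest possible). Autosomal CpG-rich tiles differed the other way, by -0.848 points. The other transplanted libraries ranged from 43.1% to 50.7% on these X tiles and the other untransplanted ones from 38.6% to 40.6%. Read depth on X relative to autosomes was 0.790 ± 0.0208 and 0.657 ± 0.0191, and reads on chromosome Y were 361 ± 34.2 and 569 ± 14.6 per 1000000 reads (SD, n = 3 each, transplanted libraries first). The labels give no sex, so the sex of the animals and transplantation cannot be told apart.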

How the results depend on the processing

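All 4 planned single values kept their direction under every coverage, tile and leave-one-out setting, none of which could pass 0.05, but not their size: with 20 reads per CpG and with 5 CpGs per tile, the autosomal mean differed by -2.84 and -3.64 points (against -6.17 as reported) and the share at 20% to 80% by 6.45 and 9.73 points (against 16.3). Depth differed between the groups, and its part in this was not tested. The count of changed tiles (4210) did not hold to within 1.5 times. It was 1763 and 486 with at least 10 and 20 reads per CpG, 2088 in 300-bp tiles, 1803 with at least 5 CpGs, 6765 with all 25 libraries in the fit and 2476 with each CpG counted once. Leaving out 1 library gave 342 (without 0-dose replicate 1) to 2822. The settings of the dispersion run before the fit in use gave 0 for the first one (18.1% of tiles at an unadjusted p under 0.05), 5100, 3206 and 1598 at fixed correlations of 0.002, 0.005 and 0.008, 0 for the mean over all tiles (21.9%), 1167 for the median over all tiles and 0 for the median over tiles at 10 to 90% (20.6%); limma called 3197. The share that fell (97.3%) was 91.4% with 20 reads, 95.7% in 300-bp tiles, 94.4% with 5 CpGs, 97.9% by limma, 98.2% with each CpG once, 89.3% with chromosome X, 96.0% and 96.4% at fixed correlations of 0.002 and 0.005, and 96.7% to 98.3% with 1 library left out. It has no value where 0 tiles were called. The difference in median spread between replicates (0.162 points, transplanted minus 0-dose) was -0.235 with 20 reads, -0.0693 in 300-bp tiles, -0.143 with 5 CpGs and -0.180 to 0.380 with 1 library left out. Changed promoter windows (8) numbered 18 by limma, 0 with each CpG once and 4 to 10 with 1 library left out. With the replicate block, 4964 tiles and 12 windows were called. Deviations of same-numbered libraries correlated at -0.0144, -0.0293 and 0.00767, so tile levels showed no pairing by number. Whether same-numbered libraries shared a preparation was not tested. Of 17 named tiles, 4 were not called by limma and 7 with each CpG counted once. The causes were not tested.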
